A study of Mus musculus with 9 samples.

Results

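Small-molecule methyltransferases move a methyl group from S-adenosylmethionine to a metabolite, a drug or a lipid rather than to DNA, RNA or protein. The product S-adenosylhomocysteine is then broken down and the methionine is rebuilt with folate-borne carbon, so these enzymes are the consuming end of the one-carbon network. Creatine synthesis is known as one of the larger uses of these methyl groups in the body, and muscle holds most of its creatine. The 9 genes described here are Gamt, Gnmt, Pemt, Nnmt, Inmt, Hnmt, Tpmt, As3mt and Coq3, out of 24063 gene symbols in the tables. They were taken by symbol, as a family, with earlier results of these data known. Where a symbol had several transcripts, the transcript was selected on its mean count over all 9 libraries, a value that does not use the groups. Inmt and Gamt had already been singled out for their differences with 1C-MIM, so their values in those comparisons are a description and carry no test. Of the 9 genes, 8 passed the filter on low counts. Gnmt, with 1 to 9 counts per library, did not.

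The cells were C2C12, an established mouse myoblast line of wild-type genotype. They were differentiated in DMEM with 2% FBS and are labelled day 3. 1C-MIM fibres were grown with One-Carbon Metabolite Induced Medium, that is with 6 added metabolites tied to the one-carbon network, scramble fibres with 6 metabolites unrelated to it, and control fibres in normal medium, with 3 libraries in each group. The sources used here give neither the metabolites' names nor their doses. They also do not say whether a group's libraries are separate cultures, and p-values therefore cover the spread between libraries alone, which may be technical. C2C12 is a single line, and its differentiated cultures are known to keep mononucleated cells beside the fibres.

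Depth was 29.0 to 33.2 M counts per library with 1 transcript per symbol. Of the muscle fibre markers searched, all but Mymk were found and passed the filter, and the summed level of these 9 was 7401 to 9172 CPM (counts scaled to the normalized library size) in 1C-MIM, 5377 to 7759 CPM in scramble and 4583 to 8876 CPM in control. Against control, 2 of the 9 were called higher and 0 lower. All 5 dividing-cell markers were lower with 1C-MIM in both comparisons, at a summed 557 to 689 CPM in 1C-MIM, 1122 to 1330 CPM in scramble and 1039 to 1364 CPM in control. Reserve-cell markers summed to 548 to 615 CPM in 1C-MIM, 447 to 454 CPM in scramble and 396 to 431 CPM in control, with 2 of 5 higher and 1 lower in 1C-MIM than in control. Notch3 was the largest part of that sum, with means of 428 CPM in 1C-MIM, 223 CPM in scramble and 201 CPM in control. Cd34 went the other way, with means of 48.1 CPM in 1C-MIM, 131 CPM in scramble and 123 CPM in control, so these markers gave no common direction. Of the hepatocyte markers Ttr and Tat were at 0 in every library and the others near 0, with summed levels of at most 0.0345 CPM in 1C-MIM, 0.0679 CPM in scramble and 0.0892 CPM in control. Control replicate 1 stood apart from the other controls, with 8876 CPM of fibre markers against 5166 and 4583 CPM in control replicates 2 and 3. In these bulk samples, fewer cells of a type and less RNA per cell cannot be told apart.

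The promoter windows of the genes that differ most with 1C-MIM are shown to set the sequence beside the values that follow. Each runs from 250 bases before to 50 bases after the RefSeq start, 5′ to 3′ on the gene's strand (RefSeq, build GRCm38.p6). Inmt lies on the minus strand at chr6:55174941-55175240, Hnmt on the minus strand at chr2:24049330-24049629, As3mt on the plus strand at chr19:46707208-46707507 and Gamt on the minus strand at chr10:80260963-80261262. Capitals mark TATAAA, the TATA box letters, and CAGCTG, an E-box of the kind MyoD binds, searched on both strands.
Inmt: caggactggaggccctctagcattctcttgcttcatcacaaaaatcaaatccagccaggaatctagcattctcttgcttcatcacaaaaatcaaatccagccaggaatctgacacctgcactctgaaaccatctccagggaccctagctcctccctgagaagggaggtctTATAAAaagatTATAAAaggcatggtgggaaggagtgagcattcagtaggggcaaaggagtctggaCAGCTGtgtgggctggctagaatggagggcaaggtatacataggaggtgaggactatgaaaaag
Hnmt: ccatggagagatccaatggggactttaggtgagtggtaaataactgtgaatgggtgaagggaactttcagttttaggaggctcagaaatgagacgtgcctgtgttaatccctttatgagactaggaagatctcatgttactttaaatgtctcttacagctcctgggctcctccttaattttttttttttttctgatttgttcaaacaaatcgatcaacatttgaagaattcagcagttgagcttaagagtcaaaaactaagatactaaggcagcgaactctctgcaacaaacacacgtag
As3mt: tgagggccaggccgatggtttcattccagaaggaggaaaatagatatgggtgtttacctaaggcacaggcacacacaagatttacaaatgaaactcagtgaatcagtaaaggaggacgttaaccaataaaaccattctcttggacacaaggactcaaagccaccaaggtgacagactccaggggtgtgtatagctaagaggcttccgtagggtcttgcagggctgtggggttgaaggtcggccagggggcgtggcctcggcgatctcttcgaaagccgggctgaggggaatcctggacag
Gamt: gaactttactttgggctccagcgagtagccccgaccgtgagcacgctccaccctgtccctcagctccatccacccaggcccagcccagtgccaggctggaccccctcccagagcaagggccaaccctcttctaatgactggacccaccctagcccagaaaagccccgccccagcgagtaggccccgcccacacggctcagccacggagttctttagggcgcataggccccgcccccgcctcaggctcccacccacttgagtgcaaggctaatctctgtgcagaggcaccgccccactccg

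The Inmt window held no CG dinucleotide, as did 5.43% of the 32851 promoter windows in the table. It held 2 TATAAA matches and 1 CAGCTG match, which lies close before the start. TATAAA occurred in 13.6% of all windows and CAGCTG in 16.3%. A stretch of 46 bases stood in the Inmt window as a pair of copies end to end. The copies start at positions -235 and -189 relative to the RefSeq start. A repeat at least as long was in 0.250% of windows. That length was set by the longest repeat of the Inmt window itself, and the longest repeats of the other members were not determined. The Hnmt window had 4 CG dinucleotides, the As3mt window 9 and the Gamt window 14, against a median of 7 over all windows, and none of these 3 held either motif. CACGTG, the other E-box searched, was in none of the members' windows and in 7.15% of all windows. Among the members not called below, the windows of Pemt had 2 and 3 CG dinucleotides, that of Tpmt 22 and those of Coq3 18 and 31. Tpmt held CAGCTG once. Windows were found for 8 of the 9 members. Nnmt was not matched.

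Levels of different genes were compared in the deposited TPM, which is per length. Gamt, the enzyme that methylates guanidinoacetate to creatine, led the family in every library, at 52.3 ± 3.3 TPM in 1C-MIM, 34.8 ± 4.5 TPM in scramble and 32.0 ± 2.5 TPM in control (mean ± SD, n = 3 each here and below). Its mean over all libraries lay above that of 78.8% of the tested genes. Coq3, As3mt, Inmt, Tpmt and Pemt followed with means over the 9 libraries of 10.4, 9.66, 8.24, 7.57 and 6.16 TPM. Nnmt had 3.63 TPM, Hnmt 0.843 TPM and Gnmt 0.126 TPM. The neighbours from Coq3 to Pemt overlapped in part: As3mt libraries spanned 6.87 to 14.8 TPM, across all Coq3 libraries (9.90 to 11.0 TPM) and all Tpmt libraries (7.06 to 8.21 TPM). Inmt had no fixed place in this order, since it stood at 14.5 ± 2.8 TPM in scramble, above every member but Gamt, and at 1.08 ± 0.94 TPM in 1C-MIM.

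Summed over the 9 transcripts, the family came to 94.0 ± 4.3 TPM in 1C-MIM, 87.4 ± 6.2 TPM in scramble and 77.6 ± 5.1 TPM in control. Gamt made up 55.6 ± 1.0% of that sum in 1C-MIM, 39.7 ± 2.3% in scramble and 41.3 ± 2.6% in control. Inmt made up 1.14 ± 0.97% in 1C-MIM, 16.5 ± 2.3% in scramble and 11.5 ± 5.2% in control. The share of Gamt in 1C-MIM lay above its share in all other libraries and the share of Inmt below it.

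**Figure D1:**
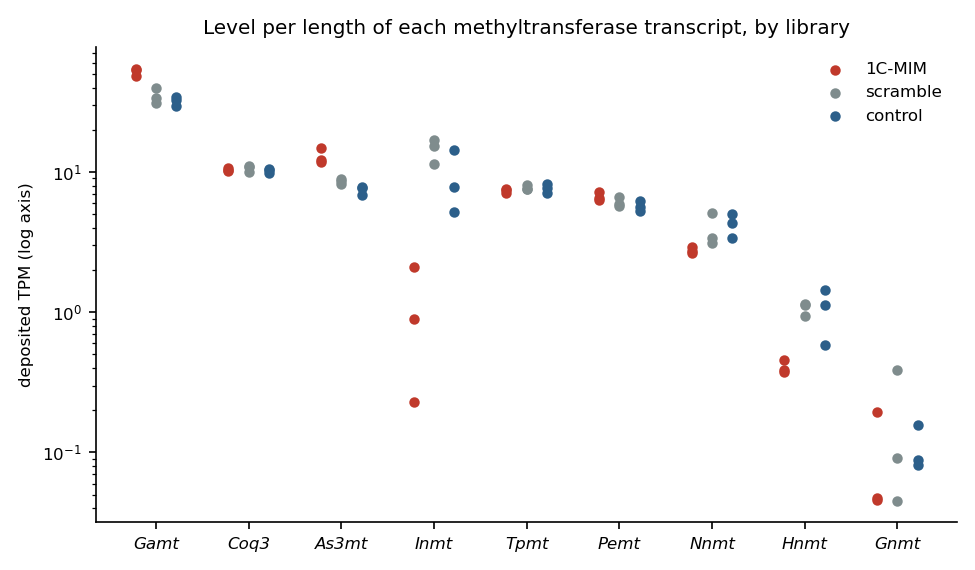
Deposited TPM of the kept transcript of each gene on a log axis, 1 point per library, with 1C-MIM at the left, scramble in the middle and control at the right of each gene. Gamt sits at 29.4 to 54.6 TPM in all libraries, and Inmt spans 0.231 to 16.8 TPM.

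The comparisons of 1C-MIM with control and with scramble ask how fibres given one-carbon metabolites differ from fibres in normal medium and from fibres given unrelated metabolites. The family split. Gamt and As3mt were higher with 1C-MIM, Inmt and Hnmt were lower, Nnmt was lower by a smaller margin, and Pemt, Tpmt and Coq3 were not called. Against control, 5 of the 8 tested members were called by edgeR's quasi-likelihood test (adjusted p below 0.05), 2 higher and 3 lower. Over all 14006 tested genes 47.3% were called in that comparison, 22.9% higher and 24.3% lower, so 5 of 8 is near the background. Among the 6 members not singled out earlier, 3 were called, 1 higher and 2 lower. Against scramble, 4 of the 8 were called, 2 higher and 2 lower, beside 46% of all tested genes, 22.9% higher and 23.2% lower. Among the 6 members not singled out earlier, 2 were called against scramble, 1 higher and 1 lower. The libraries of 6 of the 8 did not overlap between 1C-MIM and control, beside 55.5% of all tested genes. Between 1C-MIM and scramble those of 5 of the 8 did not overlap, beside 59.5% of all tested genes. Separate libraries were thus common over all genes. These counts over all 8 include Inmt and Gamt, whose values are not independent of how they were chosen. The median log2 fold change of the 8 was -0.04 against control and -0.07 against scramble, where that of all tested genes was -0.01 and 0.00. The 1C-MIM libraries enter both comparisons, whose values stand side by side for that reason and are not independent.

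**Figure D2:**
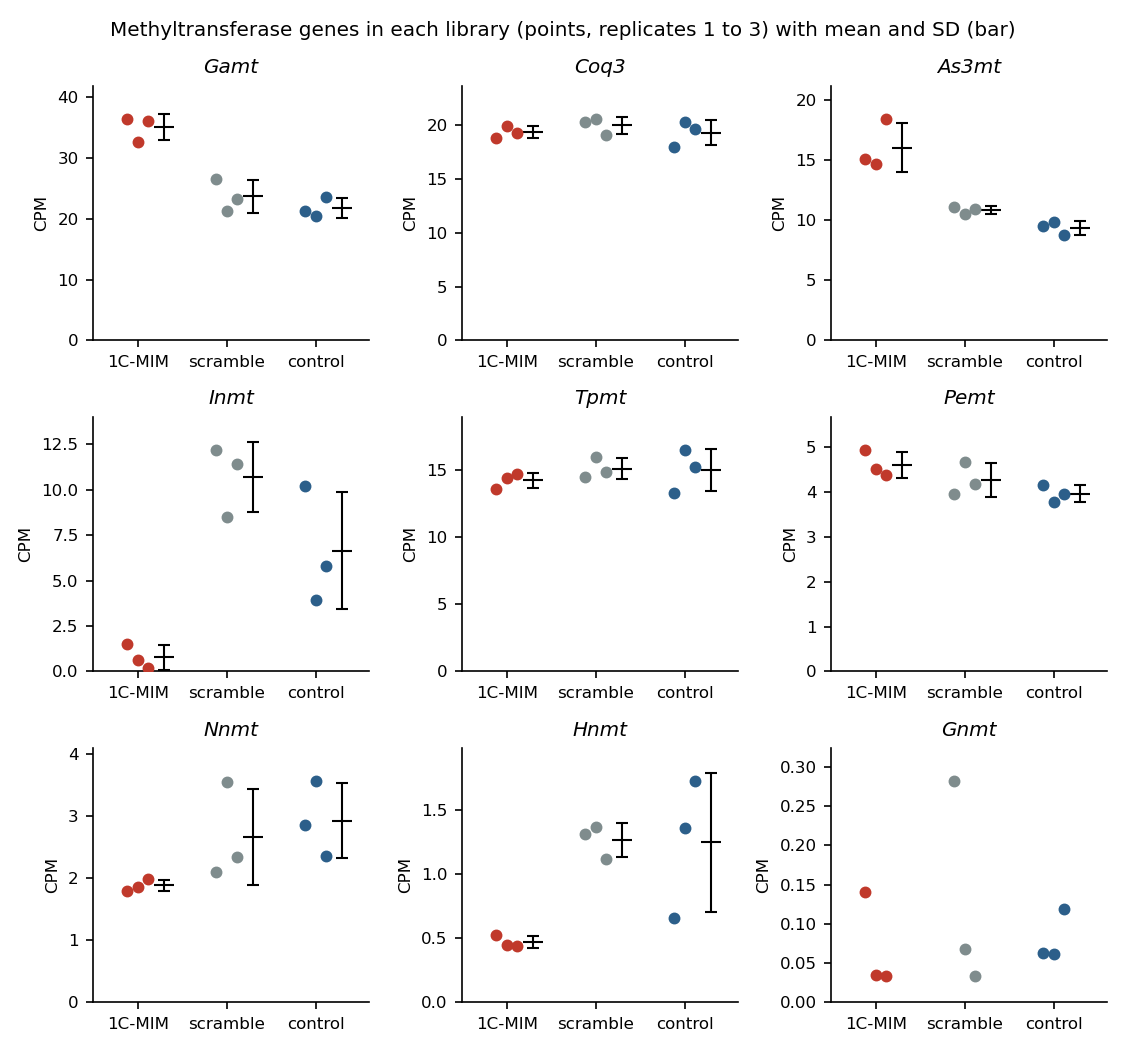
CPM of each gene in every library (points, replicates 1 to 3 from left to right in each group) with the group mean and SD beside them (no bar for Gnmt, which had 1 to 9 counts). Inmt at 0.168 to 1.51 CPM and Hnmt at 0.437 to 0.528 CPM in 1C-MIM lie below all scramble and control libraries.

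Inmt, indolethylamine N-methyltransferase, methylates tryptamine and related amines and, under its older name Temt, thioethers. It had 1.51, 0.656 and 0.168 CPM in 1C-MIM replicates 1 to 3, 12.2, 8.50 and 11.4 CPM in scramble and 10.2, 3.93 and 5.83 CPM in control. All 1C-MIM libraries were lower than all others, while scramble and control overlapped. These levels came from 43, 19 and 5 counts in 1C-MIM, 389, 249 and 337 in scramble and 324, 127 and 196 in control. The log2 fold change was -3.10 ± 0.58 (SE) against control, an 8.57-fold lower level, and -3.79 ± 0.57 against scramble, a 13.8-fold lower level. Among all tested genes 10 had a lower fold change than Inmt against control and 1 against scramble. This standing is not independent of how Inmt was chosen and is a description. Without 1C-MIM replicate 3, which had 5 counts, the value against control was -2.61, and without 1C-MIM replicate 1 it was -4.01.

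Inmt also varied within groups. In each of the 3 groups the library numbered 1 was the highest in Inmt and the highest in summed fibre markers. In control replicate 1 Inmt was at 10.2 CPM with 8876 CPM of fibre markers, and in control replicates 2 and 3 it was at 3.93 and 5.83 CPM with 5166 and 4583 CPM of fibre markers. Between groups this order did not hold: 1C-MIM libraries had 7401 to 9172 CPM of fibre markers and the lowest Inmt. Their part in the difference was not tested. Without all 3 libraries numbered 1, the log2 fold change of Inmt was -3.57 against control and -4.59 against scramble.

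Hnmt inactivates histamine by methylating its imidazole ring. It was a low gene, at 0.528, 0.449 and 0.437 CPM in 1C-MIM, 1.32, 1.37 and 1.12 CPM in scramble and 0.661, 1.36 and 1.73 CPM in control. The 1C-MIM libraries lay below all others, and control replicate 1 was the nearest to them. The log2 fold change of Hnmt was -1.40 ± 0.35 against control (edgeR adjusted p = 0.00643), a 2.65-fold lower level, and -1.42 ± 0.35 against scramble (edgeR adjusted p = 0.00656). The counts behind this were 13 to 15 per library in 1C-MIM, 33 to 42 in scramble and 21 to 58 in control. Control replicate 1 had the fewest dividing-cell markers of the control group as well, at 1039 CPM against 1364 and 1348 CPM in control replicates 2 and 3. Scramble replicate 1 also had the fewest of its group, at 1122 CPM against 1323 and 1330 CPM, but its Hnmt lay between those of scramble replicates 2 and 3. In 1C-MIM, replicate 1 was the highest in both dividing-cell markers and Hnmt. The part of these markers in the Hnmt difference was not tested. Without the libraries numbered 1 the value against control was -1.80 (edgeR adjusted p = 0.000149).

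**Figure D3:**
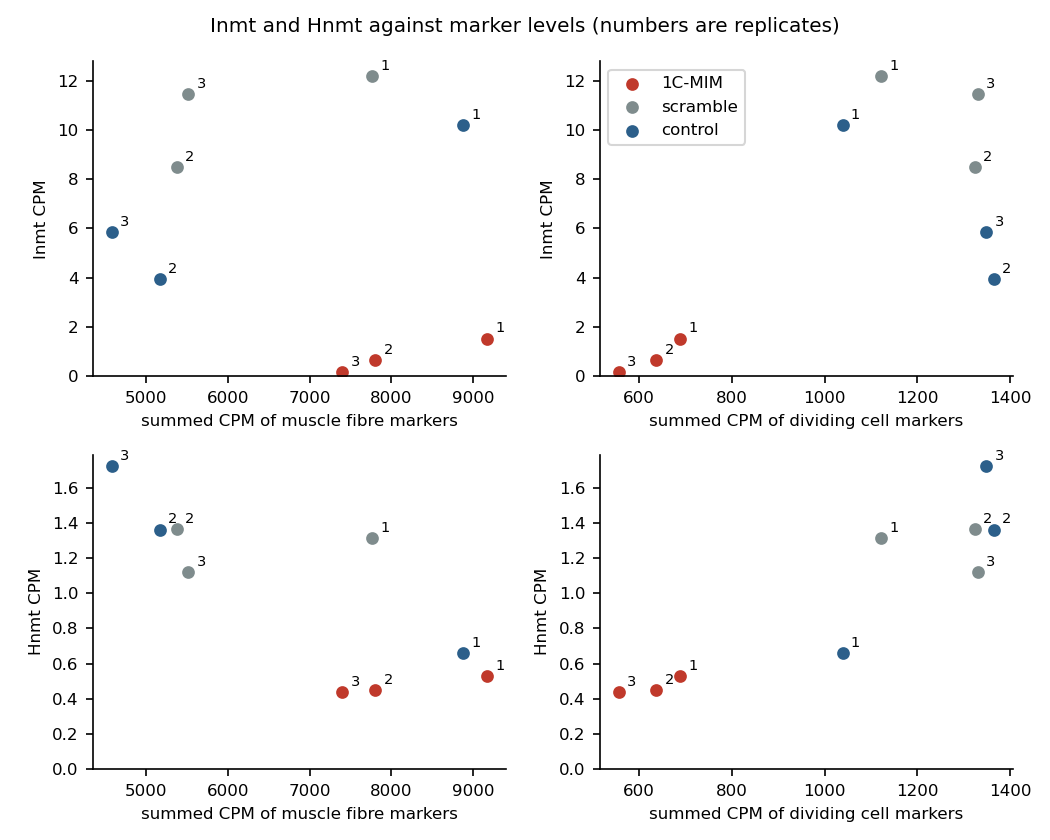
CPM of Inmt (top) and Hnmt (bottom) in each library against the summed CPM of 9 muscle fibre markers (left) and 5 dividing-cell markers (right), with replicate numbers beside the points. The 1C-MIM libraries sit at 557 to 689 CPM of dividing-cell markers with low Inmt and Hnmt, and control replicate 1, at 1039 CPM, has high Inmt and low Hnmt.

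Nnmt methylates nicotinamide, which takes it out of NAD salvage, and belongs to the same enzyme family as Inmt. It had 1.80, 1.86 and 1.99 CPM in 1C-MIM, 2.10, 3.55 and 2.34 CPM in scramble and 2.86, 3.56 and 2.35 CPM in control. The 1C-MIM libraries were below all others, with little distance to scramble replicate 1. Nnmt fell by 0.63 ± 0.22 on the log2 scale against control (edgeR adjusted p = 0.0380), while against scramble the value of -0.50 ± 0.23 was not called (edgeR adjusted p = 0.0977). The call against control was lost without 1C-MIM replicate 1, 2 or 3 (edgeR adjusted p = 0.0959, 0.0931 and 0.0735), without control replicate 2 (edgeR adjusted p = 0.140) and with limma-voom (adjusted p = 0.0541). Without the libraries numbered 1 the value against scramble was -0.61 and was called (edgeR adjusted p = 0.0463).

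Gamt completes creatine synthesis. It had 36.4, 32.6 and 36.2 CPM in 1C-MIM, 26.6, 21.2 and 23.3 CPM in scramble and 21.2, 20.5 and 23.6 CPM in control. Every 1C-MIM library was above every other library, and scramble and control overlapped. Its log2 fold change was 0.69 ± 0.09 against control, or 1.61-fold, and 0.56 ± 0.09 against scramble, or 1.48-fold.

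As3mt methylates trivalent arsenic. It had 15.1, 14.7 and 18.4 CPM in 1C-MIM, 11.1, 10.5 and 11.0 CPM in scramble and 9.50, 9.91 and 8.78 CPM in control. The 3 groups did not overlap, with 1C-MIM highest and control lowest. Scramble and control did not overlap in 9.09% of all tested genes and in 1 of the 8 members, As3mt. As3mt rose by 0.78 ± 0.10 on the log2 scale against control (edgeR adjusted p = 9.5e-05) and by 0.56 ± 0.10 against scramble (edgeR adjusted p = 0.000782). The difference of scramble from control was small, with a log2 fold change of 0.21 ± 0.10, and was not called (edgeR adjusted p = 1).

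The remaining tested members moved little. Pemt makes phosphatidylcholine by methylating phosphatidylethanolamine and is known mainly from liver. It had 4.93, 4.52 and 4.37 CPM in 1C-MIM, 3.95, 4.68 and 4.17 CPM in scramble and 4.15, 3.78 and 3.96 CPM in control. All 1C-MIM libraries were above all control libraries, while scramble replicate 2 lay above 1C-MIM replicates 2 and 3 and below 1C-MIM replicate 1. The log2 fold change was 0.22 ± 0.11 against control (95% interval -0.03 to 0.47, edgeR adjusted p = 0.142) and 0.11 ± 0.11 against scramble (95% interval -0.14 to 0.36, edgeR adjusted p = 0.449). Pemt was the one member with several transcripts in the tables. Its 5 rows are transcripts of the same gene and not separate measurements, and the kept row NM_001290011 and NM_001290012 had the same mean and SD of CPM in every group. Over the 5 rows the mean was 3.81 to 4.61 CPM in 1C-MIM, 3.37 to 4.27 CPM in scramble and 3.21 to 3.96 CPM in control, so every row had the same order of groups.

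Tpmt methylates thiopurine drugs, and its natural substrate is not settled. It stood at 14.2 ± 0.56 CPM in 1C-MIM, 15.1 ± 0.76 CPM in scramble and 15.0 ± 1.6 CPM in control, with overlapping libraries. Its log2 fold change was -0.08 ± 0.09 against control (95% interval -0.27 to 0.12, edgeR adjusted p = 0.497) and -0.09 ± 0.09 against scramble (95% interval -0.28 to 0.11, edgeR adjusted p = 0.452). In the GENCODE M21 annotation the processed pseudogene Gm18807 covers 17.4% of the Tpmt exon bases on the opposite strand. Whether counting used strand is unknown here, so reads of the pseudogene may be part of the Tpmt values. No other member shared exon bases with another gene there.

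Coq3 adds methyl groups to the ring of coenzyme Q in mitochondria. It had 18.8, 19.9 and 19.2 CPM in 1C-MIM, 20.3, 20.5 and 19.0 CPM in scramble and 18.0, 20.3 and 19.6 CPM in control. The groups overlapped throughout. Its log2 fold change was 0.00 ± 0.07 against control (95% interval -0.14 to 0.15, edgeR adjusted p = 0.969) and -0.05 ± 0.07 against scramble (95% interval -0.19 to 0.10, edgeR adjusted p = 0.605).

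Gnmt makes sarcosine from glycine and is an abundant enzyme of liver. It had 4, 1 and 1 counts in 1C-MIM, 9, 2 and 1 counts in scramble and 2, 2 and 4 counts in control. At this depth no difference was detectable, and no fold change was computed.

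**Figure D4:**
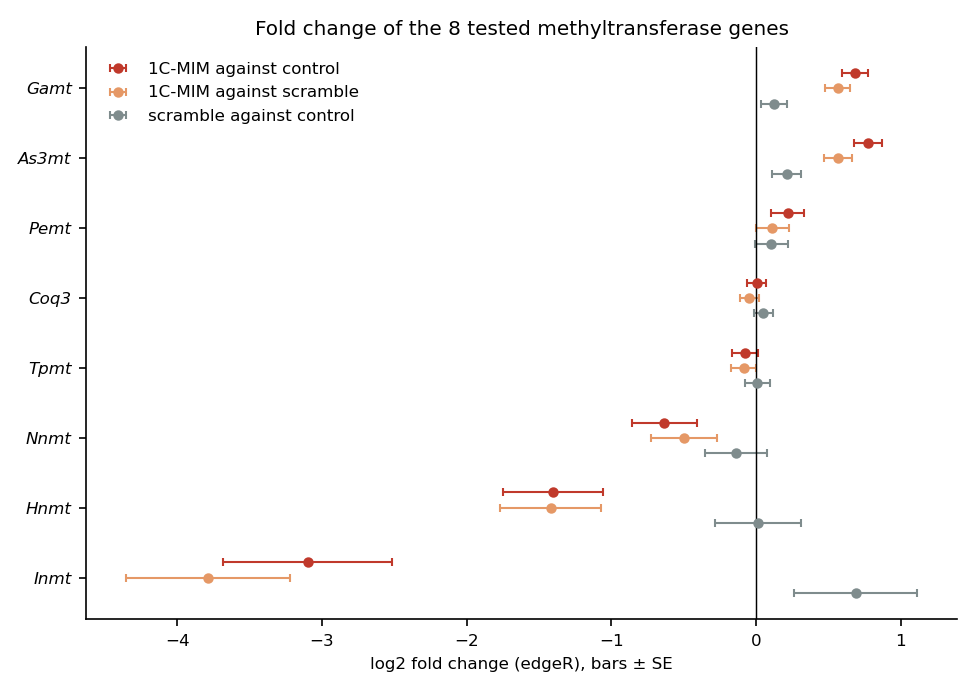
Log2 fold change with its SE for the 8 tested genes in the 3 comparisons, from edgeR. Inmt stands at -3.10 and -3.79 and Hnmt at -1.40 and -1.42 for 1C-MIM, Gamt and As3mt at 0.56 to 0.78, and the bars of Coq3 and Tpmt lie close to 0.

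The comparison of scramble with control asks whether adding unrelated metabolites alone changes these fibres. None of the 8 tested members was called, nor was any of the 14006 genes by edgeR (0.0% called, 0.0% higher and 0.0% lower, with 482 genes at an unadjusted p below 0.05). DESeq2 called 4 genes and limma-voom 0, and neither called a member. Without control replicate 1 edgeR called 3 genes, and without all libraries numbered 1 it called 96, none of them a member. The widest uncertainty was that of Inmt, at 0.69 ± 0.43 on the log2 scale (95% interval -0.30 to 1.68). Without control replicate 1 its value was 1.13. For Gamt the interval was -0.07 to 0.32 and for As3mt -0.01 to 0.43. The median log2 fold change of the 8 members was 0.08, where that of all tested genes was 0.00.

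Genes with the most similar pattern over the 9 libraries were taken by Pearson's r of log2 CPM among 10504 to 10505 genes of at least 5 CPM. These r values are descriptions, since the libraries are shared. They hold both the difference between 1C-MIM and the other groups and the spread between libraries of a group, which were not separated. For Pemt, Tpmt and Coq3 the group difference was small. Nnmt also had a wide spread within groups, with 2.10 to 3.55 CPM in scramble. Nearest to Inmt were Cilp, a matrix protein of cartilage (r = 0.990), Desi2 (r = 0.990) and Anpep, the ectopeptidase aminopeptidase N (r = 0.989). Cilp averaged 142 CPM in 1C-MIM, 328 CPM in scramble and 265 CPM in control, a smaller contrast than that of Inmt. Nearest to Gamt were the RNA helicase gene Ddx54 (r = 0.989), Gcn1l1 (r = 0.986) and the endosomal gene Zfyve20 (r = 0.984). Nearest to As3mt were the growth factor receptor gene Egfr (r = 0.984), Cyb5b (r = 0.983) and the protein kinase A inhibitor gene Pkig (r = 0.982). Egfr averaged 85.1 CPM in 1C-MIM, 68.8 CPM in scramble and 63.3 CPM in control, the same order of groups as As3mt. Among the genes nearest to Hnmt were Casp9 (r = 0.984) and Dck (r = 0.983). For Nnmt, Pemt, Tpmt and Coq3 the first neighbours were Stx8 (r = 0.934), Gne (r = 0.911), Ndufb4 (r = 0.976) and Wipf1 (r = 0.934).

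The genes that feed these enzymes with methyl groups, and those that handle their substrates and products, were read from lists around the members. Of 9 tested genes of S-adenosylmethionine supply and S-adenosylhomocysteine removal, 4 were higher and 2 lower with 1C-MIM than in control, with a median log2 fold change of 0.09. Mtr, methionine synthase, was higher by 0.83 ± 0.06 (edgeR adjusted p = 2.37e-06) and Slc25a26, the mitochondrial carrier of S-adenosylmethionine, by 0.43. Mat2a, which makes S-adenosylmethionine, was lower at -0.46 ± 0.05 (edgeR adjusted p = 3.37e-05). Ahcy, the hydrolase of S-adenosylhomocysteine, had 40.9 CPM in 1C-MIM, 46.5 CPM in scramble and 46.9 CPM in control and was not called (edgeR adjusted p = 0.0724 against control). Slc25a26 and Ahcy were picked after their values were seen.

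Other small-molecule methyltransferases also went both ways. Of 6 tested, 2 were higher and 2 lower with 1C-MIM than in control, and likewise against scramble. Mettl7a1 fell to 26.9 ± 2.6 CPM in 1C-MIM, against 47.4 ± 4.1 CPM in scramble and 42.9 ± 5.0 CPM in control (-0.67 ± 0.10 against control, edgeR adjusted p = 3e-04), and its value is uncertain where reads fit its paralogs as well. Comtd1 rose to 9.39 ± 1.0 CPM, against 6.03 ± 0.40 CPM in scramble and 6.36 ± 0.42 CPM in control (0.56 ± 0.11 against control).

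Around Gamt, the first creatine enzyme and the creatine kinases did not follow it as a group. Gatm, which makes guanidinoacetate, fell to 109 ± 2.9 CPM in 1C-MIM, against 139 ± 11 CPM in scramble and 127 ± 2.1 CPM in control (-0.22 ± 0.06 against control, edgeR adjusted p = 0.00802). Ckm, the muscle creatine kinase and itself among the fibre markers above, rose to 123 ± 21 CPM in 1C-MIM, against 58.2 ± 9.8 CPM in scramble and 59.9 ± 17 CPM in control (1.04 ± 0.22 against control, edgeR adjusted p = 0.00634). Ckmt2, a low gene, had 2.88 ± 0.15 CPM in 1C-MIM, 3.47 ± 0.67 CPM in scramble and 3.95 ± 0.41 CPM in control. It fell by 0.46 against control and was not called against scramble (-0.27, edgeR adjusted p = 0.187). Of 5 tested genes in this list 1 rose and 2 fell against control, and 1 rose and 1 fell against scramble.

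Around Hnmt and Inmt, genes that make histamine and tryptamine moved apart. Hdc, which makes histamine, fell to 3.12 ± 0.43 CPM in 1C-MIM, against 7.10 ± 0.71 CPM in scramble and 6.15 ± 0.65 CPM in control (-0.98 ± 0.14 against control, edgeR adjusted p = 0.000196). Ddc, which makes tryptamine and serotonin, rose to 5.79 ± 0.06 CPM in 1C-MIM, against 1.97 ± 0.40 CPM in scramble and 1.95 ± 0.75 CPM in control (1.57 ± 0.23 against control, edgeR adjusted p = 0.00025). Hdc and Hnmt, the enzymes that make and methylate histamine, were thus both lower with 1C-MIM. Tph1, which starts serotonin synthesis from tryptophan, was a low gene and had the lowest log2 fold change of this list against control. It had 0.346 ± 0.13 CPM in 1C-MIM, 1.07 ± 0.18 CPM in scramble and 0.885 ± 0.31 CPM in control (-1.34 ± 0.37 against control, edgeR adjusted p = 0.0113). It was named after its value was seen. Aldh2 fell by 0.25, and of the 7 tested genes of this list 1 rose and 3 fell in each comparison of 1C-MIM.

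Around Nnmt, 6 of 15 nicotinamide genes were higher and 4 lower than in control. Nmrk2, the muscle kinase of nicotinamide riboside, rose to 11.5 ± 1.2 CPM in 1C-MIM, against 4.74 ± 0.24 CPM in scramble and 5.36 ± 0.75 CPM in control (1.11 ± 0.12 against control, edgeR adjusted p = 3.68e-05). Nmnat2, which makes NAD from the mononucleotide, rose by 0.65 ± 0.08, and Nadsyn1 fell by 0.58 ± 0.08. Nampt, the salvage enzyme that competes with Nnmt for nicotinamide, fell by 0.51 (edgeR adjusted p = 0.00114), and Aox1, an oxidase of methylnicotinamide, by 0.56 (edgeR adjusted p = 0.0046). Both were chosen after their values were seen.

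**Figure D5:**
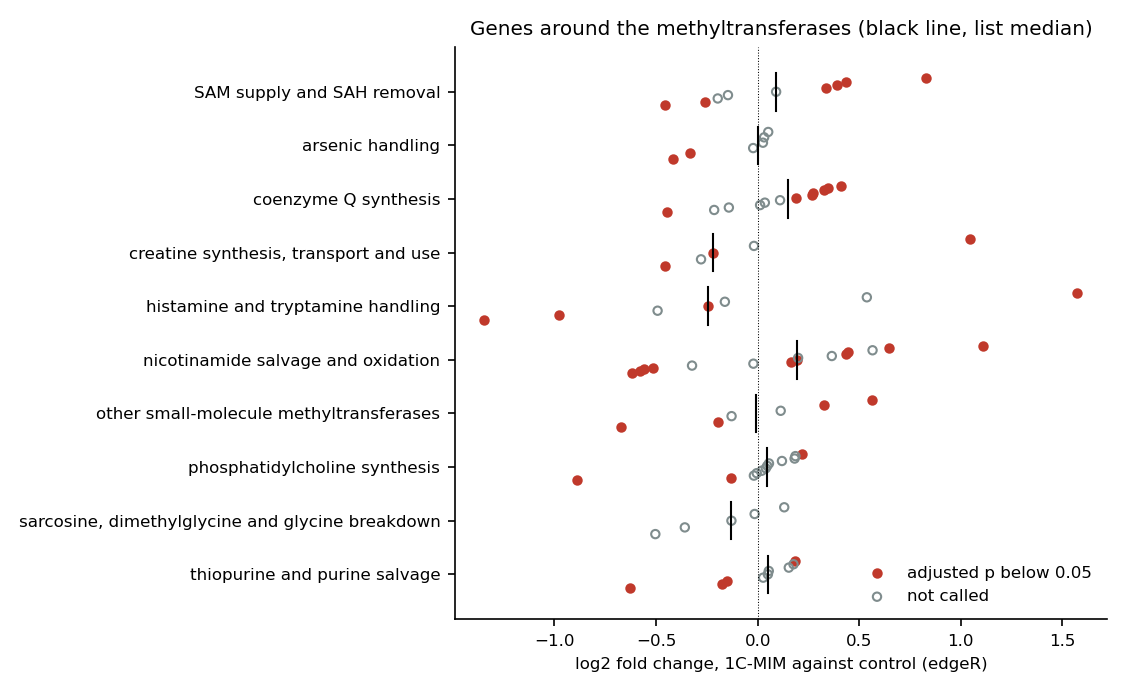
Log2 fold change, 1C-MIM against control, of each tested gene in the 10 lists around the methyltransferases, with genes past the threshold filled, others open and the list median as a black line. Genes of every list but the sarcosine list include called ones, and the histamine and tryptamine list runs from Tph1 at -1.34 and Hdc at -0.98 to Ddc at 1.57.

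Around Coq3, 6 of 12 tested coenzyme Q genes were higher and 1 was lower than in control, with a median of 0.15, and 4 and 1 against scramble. Coq5, the C-methyltransferase of the same pathway, rose by 0.33 ± 0.06 (edgeR adjusted p = 0.00186), Pdss2 by 0.41 ± 0.09 and Coq9 by 0.27 ± 0.06, while Coq3 was not called. Around Pemt, 1 of 12 genes of the other phosphatidylcholine routes was higher and 2 were lower. Pcyt1b, an isoform gene of a rate-limiting enzyme of the choline route, fell to 7.19 ± 0.68 CPM in 1C-MIM, against 14.3 ± 0.88 CPM in scramble and 13.3 ± 0.74 CPM in control (-0.89 ± 0.09 against control, edgeR adjusted p = 2.68e-05). Pcyt1a, the gene of another isoform, had a far higher mean CPM than Pcyt1b in every group and was not called. Its log2 fold change was 0.12 ± 0.07 against control (edgeR adjusted p = 0.174) and 0.09 ± 0.07 against scramble (edgeR adjusted p = 0.29). Pcyt1a was named after its value was seen. Pisd rose by 0.22 and Ptdss1 fell by 0.13.

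Around Tpmt, 1 of 9 purine salvage genes was higher and 3 were lower than in control. Hprt, which activates thiopurines, fell to 57.1 ± 0.94 CPM in 1C-MIM, against 89.6 ± 5.8 CPM in scramble and 88.2 ± 6.2 CPM in control (-0.63 ± 0.06 against control, edgeR adjusted p = 2.29e-05), with Impdh2 lower (-0.17) and Nt5c2 higher by 0.18. Around As3mt, 0 of 6 tested genes were higher and 2 were lower, the thioredoxin gene Txn1 at -0.33 and the carrier gene Slc25a10 at -0.42, while Txnrd1 had a value of 0.03. Around Gnmt, none of 5 tested genes of sarcosine and glycine breakdown was called against control by edgeR, and 0 had an unadjusted p below 0.05, with Gldc at -0.50, Amt at -0.36 and Dld at 0.13. Against scramble Amt was lower (-0.50, edgeR adjusted p = 0.0429). Called against control were 0 of 5 genes in the sarcosine list, 3 of 12 in the phosphatidylcholine list and 10 of 15 in the nicotinamide list, beside 47.3% of all tested genes (22.9% higher and 24.3% lower). The counts given above for the other lists are to be read beside the same shares, and no list was tested as a set. In scramble against control none of the listed genes was called.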

How the data were processed

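RNA sequencing was done on 9 libraries of C2C12 fibres, 3 per group. Per the labels' protocols, 1.3 µg of total RNA entered each SMARTer library. Names in the submitters' processing notes, given without roles, include Trim Galore 0.6.7, Salmon 1.5.2, STAR, Subread 2.0.1 with featureCounts, DESeq2 1.28.0 and build GRCm39. The sources used here do not tie a tool to a value, nor do they state strand use. Per the file headers, every deposited row is 1 of 33984 RefSeq transcripts with a whole-number count and its FPKM and TPM. The authors' FPKM is scaled by transcript length and library total, and the authors' TPM to 1 sum per library.

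The transcript with the highest mean count stood for each symbol. Counts were fitted with edgeR 4.0.16 (R 4.3.3): filterByExpr, TMM, robust quasi-likelihood test, all 9 libraries in 1 fit, Benjamini-Hochberg adjustment over the 14006 genes kept. SE is the fold change over the root of the F statistic. CPM uses the TMM library size. The steps were tested on simulated data. No pair of libraries within a group agreed within sampling noise (chi-square over degrees of freedom 3.21 to 45.3).

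The members, lists and markers were chosen with earlier results of these data known. Named genes are all members, up to 3 genes per list with the smallest p in 1C-MIM against control, and the 3 genes nearest to each member by Pearson's r. Some genes that the tables hold are not reported here. Carnmt1, Selenoi, Coq8a and Coq8b were matched through RefSeq synonyms. Alternatives were other scalings and filters, DESeq2 1.42.0, limma-voom (limma 3.58.1), a fit of only the compared groups and the mean over transcripts. Libraries were also left out, and a block for the replicate number was fitted. Same-numbered scramble and control libraries deviated together in all 3 pairs, but their replicates 2 and 3 did so when differently numbered as well. Same-numbered pairs with 1C-MIM did not all do so.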

Additional observations from a re-analysis of the deposited data

How the results depend on the processing

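The direction of Inmt, Gamt, As3mt, Hnmt and Nnmt in both comparisons with 1C-MIM held under every alternative run, and so did the calls of Hnmt and As3mt. With single libraries left out, log2 fold changes against control and against scramble were -4.01 to -2.61 and -4.70 to -3.30 for Inmt, -1.71 to -1.10 and -1.51 to -1.36 for Hnmt, 0.64 to 0.75 and 0.49 to 0.65 for Gamt, 0.67 to 0.84 and 0.45 to 0.63 for As3mt, and -0.77 to -0.47 and -0.64 to -0.24 for Nnmt. Values near 0 changed sign. Coq3 in 1C-MIM against control was -0.018 with upper-quartile factors, -0.043 with library size alone, -0.0055 with a filter of at least 1 CPM, -0.027 without the libraries numbered 1 and -0.047 to 0.034 with single libraries left out. In scramble against control, Tpmt was -0.0034 with library size alone, and without the libraries numbered 1 Tpmt was -0.040, Hnmt -0.32 and Coq3 -0.011. With single libraries left out there, Tpmt was -0.070 to 0.079, Hnmt -0.29 to 0.32 and Nnmt -0.40 to 0.026. Genes called in scramble against control were 4 with DESeq2, 96 without the libraries numbered 1 and 0 to 3 with single libraries left out (3 without control replicate 1). The cause was not tested.

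Same-numbered libraries had r of 0.028 to 0.48 in their deviations from the group means, over 0.1 in 6 of 9 pairs, and differently numbered ones -0.37 to 0.24. Between scramble and control all 3 same-numbered pairs were over 0.1 (0.48, 0.21 and 0.17). Differently numbered pairs of their replicates 2 and 3 were over 0.1 as well (0.24 and 0.12). Deviations of 3 libraries from their mean sum to 0, so these pairs are not separate from that of replicate 1. The number may mark a shared source for replicate 1 there. For replicates 2 and 3 this cannot be told. With 1C-MIM not every pair was over 0.1, and the block stayed an alternative. With a replicate block, 7397 genes were called against control, 7309 against scramble and 0 between scramble and control, Inmt was at -3.09 against control, and no member's call changed. Low counts limit Inmt in 1C-MIM, Hnmt and Gnmt.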
